A study of Mus musculus with 36 samples.

Results

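The 9 genes described here encode receptors through which an adipocyte senses metabolites, local mediators and catecholamines. They are Ffar2 and Ffar4, receptors for short-chain and long-chain fatty acids, Hcar1, Hcar2 and Sucnr1, receptors for lactate, ketone bodies and succinate, Adora1 and Ptger3, receptors for adenosine and prostaglandin E2, and Adrb1 and Adrb3, β-adrenergic receptors. They were taken by name from the 55536 genes listed for each library and were chosen by their counts over the days, with the rise of Ffar2 from almost no counts already known. Their changes between days are therefore given as descriptions without a test. Of the 9 genes, 8 passed the filter on low counts and were fitted together with all 16723 genes that passed, and Ptger3 did not. Adjusted p-values are from the edgeR quasi-likelihood test, with Benjamini-Hochberg over all genes tested, unless another test is named.

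RNA sequencing data were available for 36 libraries of mouse brown pre-adipocyte lines. All lines descend from 2 clones, numbered 48 and 66, in which Rxra was disrupted by frameshifts made with Cas9. The control lines thus also lacked an intact endogenous gene (Rxra-/-). A retrovirus then supplied either wild-type RXRα (RxraWT) or RXRα with alanine in place of the serine that insulin signalling phosphorylates (RxraSA). Each of the 4 resulting lines was harvested in 3 replicates before differentiation (day 0), at day 2 and at day 6. The medium held insulin and triiodothyronine, and until day 2 also dexamethasone, indomethacin and the phosphodiesterase inhibitor isobutylmethylxanthine. Pool 1 of the sequencing held clone 48 and pool 2 clone 66, so clone and pool cannot be told apart. The deposited design calls the 3 replicates technical and the methods of the study call them independent, and p-values measure only the spread between these libraries.

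All of these receptors couple to heterotrimeric G proteins. In adipocytes, β-adrenergic receptors act through Gs, which stimulates adenylyl cyclase and, through cyclic AMP and protein kinase A, lipolysis and thermogenesis. Hcar1, Hcar2, Sucnr1, Adora1 and Ptger3 couple mainly to Gi, which lowers cyclic AMP and restrains lipolysis. Ffar2 couples to Gi and Gq, and Ffar4 couples mainly to Gq. Several of these genes are known for being low in precursor cells and high in mature fat cells, and Adrb3 in rodents is largely restricted to adipocytes.

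The libraries held between 11351078 and 24349263 counts (median 18338726). Levels are given as CPM, counts relative to the library total, which was first multiplied by the TMM factor that aligns the bulk of genes between libraries. As a sum, adipocyte markers followed the labels. The summed level of Adipoq, Fabp4, Plin1, Pparg, Cebpa and Lipe lay between 126 and 228 CPM at day 0, between 3541 and 6154 CPM at day 2 and between 6180 and 10189 CPM at day 6. Of 4 brown adipocyte markers, Ucp1 (0 to 0.307 CPM over all days) and Cidea (0 to 1.66 CPM) were nearly absent. With Ppargc1a and Prdm16 the list summed to 10.4 to 17.7 CPM at day 0, 16.4 to 31.6 CPM at day 2 and 10.9 to 31.7 CPM at day 6. The leukocyte marker Ptprc, the macrophage marker Adgre1 and the endothelial marker Cdh5 had at most 1 count in any library and were at 0 in all libraries of day 6. Other genes of these lists were present, as Cd68 lay between 5.17 and 11.3 CPM at day 6. The 6 macrophage markers summed to 5.44 to 11.6 CPM and the 4 endothelial markers to 0.157 to 0.995 CPM at day 6. Rxra itself lay between 92.6 and 233 CPM at day 0, between 400 and 712 CPM at day 2 and between 182 and 347 CPM at day 6. Both genotypes express it from the retrovirus, so its level does not check the genotype labels. Counts per gene do not separate this RNA from any RNA of the disrupted gene.

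Upstream sequence was available for 7 of the 9 genes, as 11 windows of the 250 bases before a RefSeq start (GRCm38.p6). Those of 4 genes are shown, because they were the genes with the steepest first rise (Ffar2), a later rise to the highest level per length (Ffar4), the latest onset (Sucnr1) and the widest gap between clones (Adrb1). Capitals mark matches, on either strand, to AGGTCA (a single nuclear receptor element), the direct repeat of AGGTCA with 1 base between its copies (the element of PPARγ with RXR), TTGCGCAA (C/EBP palindrome), TGACGTCA (cyclic AMP response element), TGACG (the core of that element), CACGTG (E-box) and GGGCGG (GC box). The single nuclear receptor element lies within the repeat, and the core within the full cyclic AMP response element.
Ffar2, chr7:30823776-30824025, minus strand: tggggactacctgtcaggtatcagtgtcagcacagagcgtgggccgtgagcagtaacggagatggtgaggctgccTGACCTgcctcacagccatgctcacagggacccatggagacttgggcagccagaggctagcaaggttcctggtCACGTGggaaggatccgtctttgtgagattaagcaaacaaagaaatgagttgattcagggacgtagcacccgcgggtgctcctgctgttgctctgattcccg
Ffar4, chr19:38096829-38097078, plus strand: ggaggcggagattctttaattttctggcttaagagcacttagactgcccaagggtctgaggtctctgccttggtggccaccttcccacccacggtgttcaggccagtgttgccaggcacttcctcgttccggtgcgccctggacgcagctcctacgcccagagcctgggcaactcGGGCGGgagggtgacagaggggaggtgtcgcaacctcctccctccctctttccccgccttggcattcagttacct
Sucnr1, chr3:60081619-60081868, plus strand: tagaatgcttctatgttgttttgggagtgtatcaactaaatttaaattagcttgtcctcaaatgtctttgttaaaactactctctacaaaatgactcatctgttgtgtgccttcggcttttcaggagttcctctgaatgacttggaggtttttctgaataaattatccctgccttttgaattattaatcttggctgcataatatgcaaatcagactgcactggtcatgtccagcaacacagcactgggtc
Adrb1, chr19:56721867-56722116, plus strand: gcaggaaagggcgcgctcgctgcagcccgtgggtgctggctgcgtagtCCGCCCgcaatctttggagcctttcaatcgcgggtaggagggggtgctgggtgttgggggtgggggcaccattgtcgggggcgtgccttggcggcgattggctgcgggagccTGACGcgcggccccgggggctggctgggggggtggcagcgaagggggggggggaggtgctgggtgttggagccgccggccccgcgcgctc
Ffar2 has 4 RefSeq starts, and the window shown is that at the start of the annotated gene. It held 1 AGGTCA and 1 E-box, which occur in 14% and 6.02% of 32817 RefSeq promoter windows of the same length. Of the other 3 windows of Ffar2, none held an E-box, 2 held 1 AGGTCA and 1 GC box, and 1 held no match. The Ffar4 window held 1 GC box (32.7% of windows), and the Adrb1 window held 1 GC box and 1 TGACG (17.7%). The Sucnr1 window held no match and was also the poorest in G and C, at 38% against 74% for Adrb1. None of the 4 windows held the direct repeat, which was found in 0.0335% of all windows. These matches describe the letters alone.

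Ffar2 went from near silence to one of the most abundant of the 9 transcripts within 2 days. Its gene (ENSMUSG00000051314.11) lies on the minus strand of chromosome 7, from 30818348 to 30823775 (GRCm38 with GENCODE M21 annotation, as for all gene positions given, with counts taken over exons). At day 0 the 12 libraries held 0 to 2 counts each and 4 counts in total. At day 2 its level was 31.0 CPM in the lowest, 44.0 in the median and 59.5 in the highest library, and at day 6 it was 58.9, 76.8 and 140 CPM. The pooled counts at day 2 were 2598 times those at day 0 per scaled library size, with a 95% interval of 1014 to 9538 that covers counting error only. From day 2 to day 6 the fitted log2 fold change was 0.93 (SE 0.10). The lowest library of day 6 was just below the highest of day 2, but within each clone the libraries of these days did not overlap.

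Ffar4, the receptor for long-chain fatty acids, rose in 2 steps. Its gene (ENSMUSG00000054200.7) spans 38097071 to 38114263 on the plus strand of chromosome 19. It had 0 counts in all 6 libraries of clone 48 at day 0 and 0 or 1 count in those of clone 66. At day 2 it reached 1.69, 3.43 and 7.87 CPM (lowest, median and highest of 12), and at day 6 50.9, 70.1 and 91.4 CPM. Pooled counts at day 2 were 303 times those at day 0 per scaled library size, which rests on 3 counts at day 0 and has a counting interval of 103 to 1471. The fit gave a log2 fold change of 4.18 (SE 0.16) from day 2 to day 6. In CPM, most of the rise of Ffar4 thus fell after day 2 in both clones. For Ffar2, mean levels at days 2 and 6 were 38.6 and 64.0 CPM in clone 48 and 48.9 and 108 CPM in clone 66.

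**Figure D1:**
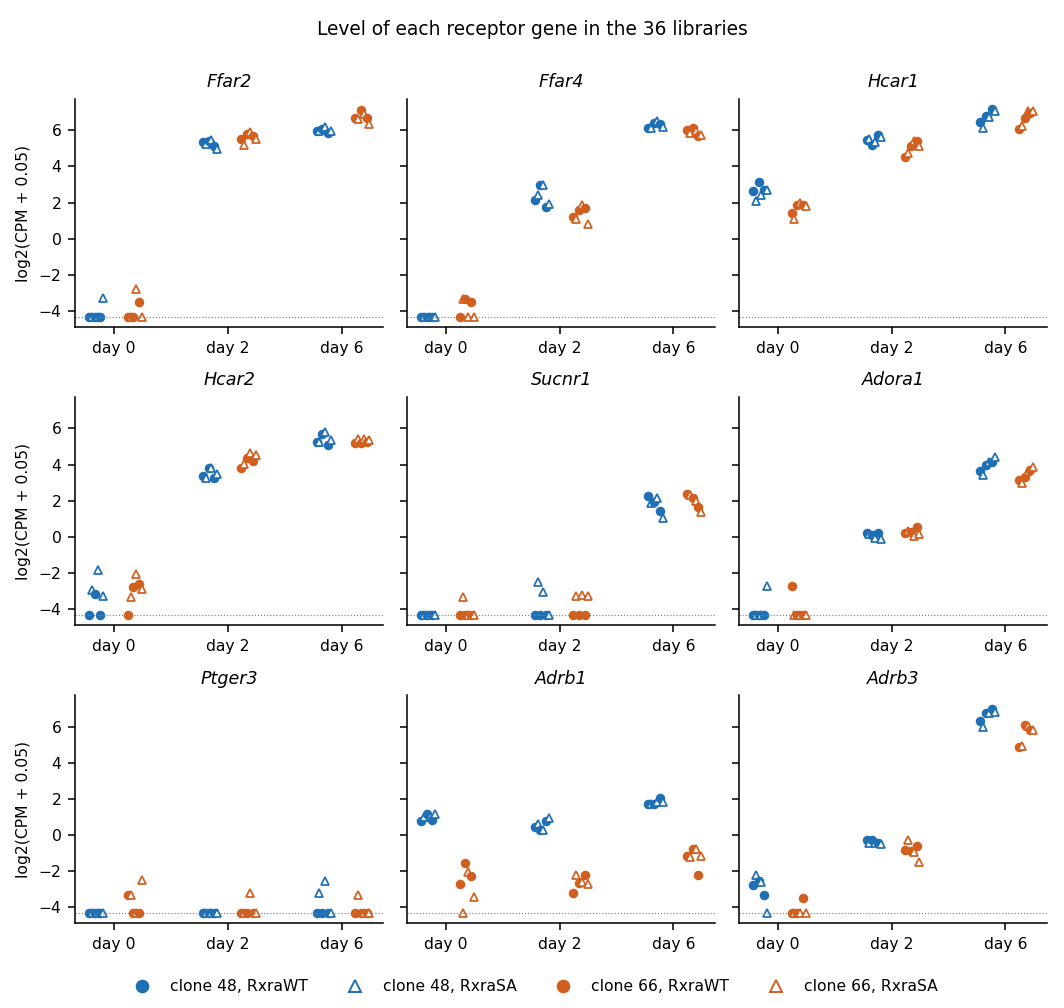
Level of the 9 receptor genes in each of the 36 libraries, as log2(CPM + 0.05) by day, with clone by colour, genotype by symbol and the dotted line at 0 counts. Ffar2, Hcar2 and Ffar4 leave the dotted line by day 2, Sucnr1 leaves it at day 6, Ptger3 stays at or near it, and Adrb1 is lower in clone 66 on all 3 days.

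Hcar1, the lactate receptor, was the only one of the 9 genes with at least 42 counts in every library before differentiation. It lay at 2.10, 3.99 and 8.66 CPM (lowest, median, highest) at day 0, at 23.1, 41.6 and 52.9 CPM at day 2 and at 67.5, 107 and 143 CPM at day 6. No library of a later day overlapped one of an earlier day. The rise from day 2 to day 6 had a log2 fold change of 1.48 (SE 0.15).

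Hcar2, the receptor for ketone bodies and nicotinic acid, is the neighbour of Hcar1 on chromosome 5, where Hcar2 spans 123863570 to 123865499 and Hcar1 123876736 to 123880020, both on the minus strand. In contrast to Hcar1 it started at 0 to 4 counts per library. It reached 9.61, 13.9 and 25.0 CPM at day 2 and 33.8, 39.0 and 56.3 CPM at day 6. Pooled counts were 196 times higher at day 2 than at day 0 (counting interval 126 to 327). From day 2 to day 6 the log2 fold change of Hcar2 was 1.45 (SE 0.14), close to that of Hcar1 although their starting levels differed.

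Sucnr1, the succinate receptor, was the last to appear. Its gene (ENSMUSG00000027762.6) spans 60081869 to 60087566 on the plus strand of chromosome 3. It had 1 count over the 12 libraries of day 0 and 6 counts over those of day 2. At day 6 every library held it, with 35 to 103 counts and levels of 2.00, 3.82 and 5.19 CPM. The 822 counts of day 6 were 127 times those of day 2 per scaled library size (counting interval 58.2 to 348). No fitted change is given for this step, because Sucnr1 passed the filter only through day 6.

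Adora1 (ENSMUSG00000042429.8, chromosome 1, 134199223 to 134235431, minus strand), the A1 adenosine receptor, was found with 0 to 2 counts at day 0. At day 2 it had 13 to 26 counts (0.882, 1.09 and 1.42 CPM) and at day 6 154 to 377 counts (7.96, 12.8 and 21.6 CPM). The log2 fold change from day 2 to day 6 was 3.60 (SE 0.17), and the days did not overlap. Adora1 shares 1162 exonic bases with Mybph on the opposite strand, and the counting did not use strand. Mybph had 0 to 5 counts in any library.

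Ptger3 (ENSMUSG00000040016.16, chromosome 3, 157566892 to 157645888, plus strand), the EP3 receptor for prostaglandin E2, was not detectably expressed at this depth. It had 5 counts over the 12 libraries of day 0, 1 count at day 2 and 4 counts at day 6, with at most 3 in any library. It was the only one of the 9 genes with no rise at any time. RxraSA libraries held 4, 1 and 4 of these counts at days 0, 2 and 6, and RxraWT libraries 1, 0 and 0. Unadjusted p were 0.7, 1 and 0.2 (exact permutation test, two-sided, genotypes exchanged within clones, 400 assignments). With counts in so few libraries this test could not give a p under 0.05 on any day, so nothing is concluded on genotype for Ptger3.

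Adrb3 (ENSMUSG00000031489.15, chromosome 8, 27225776 to 27250616, minus strand), the β3-adrenergic receptor, had 0 to 2 counts per library at day 0 and 6 to 14 counts at day 2 (0.308, 0.672 and 0.780 CPM). At day 6 it had 523 to 2217 counts, or 29.5, 67.6 and 126 CPM. Its log2 fold change from day 2 to day 6 was 6.87 (SE 0.20). At day 2 Adrb3 was thus at most at 0.780 CPM, while Ffar2 was at 31.0 CPM or more in every library. Adrb3 shares 839 exonic bases with the antisense gene Gm45470, whose median was 12.6 CPM at day 6, and without strand the reads of the pair cannot be told apart.

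Adrb1 (ENSMUSG00000035283.5, chromosome 19, 56722199 to 56733113, plus strand), the β1-adrenergic receptor, had a level that depended on the clone. In clone 48 it was present throughout, at 1.63, 1.95 and 2.18 CPM at day 0, at 1.17, 1.38 and 1.87 CPM at day 2 and at 3.17, 3.33 and 4.03 CPM at day 6. In clone 66 it had 0 to 6, 1 to 3 and 3 to 10 counts per library on these days, with medians of 0.128, 0.113 and 0.398 CPM. Over both clones the rise from day 2 to day 6 had a log2 fold change of 1.36 (SE 0.18).

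The background of these comparisons was broad. All libraries of day 2 lay above those of day 0 for 13.6% of the genes tested and for 6 of the 9 receptor genes. Between day 6 and day 0 all libraries of day 6 lay higher for 12.2% of genes and for 7 of the 9 receptor genes. Nothing is read from these counts, since the genes were chosen with this rise known. From day 2 to day 6, 62% of all genes tested were called and 31.9% rose. The fitted changes given for this step were rises for Ffar2, Ffar4, Hcar1, Hcar2, Adora1, Adrb1 and Adrb3. These changes are descriptions without a test, because the genes were chosen with their rise known and several passed the filter only through their later days. Libraries of day 6 lay above all of day 2 for 6 of the 9 genes and for 9.56% of genes tested. The summed adipocyte markers also rose over the days, as given above. From day 2 to day 6, 4 of the 6 markers were called higher and 2 lower. In bulk RNA, more cells expressing a gene and more RNA per cell cannot be told apart.

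Ordered by CPM per kb at day 6, Ffar4 was the most abundant of the 9 genes in both clones, with medians of 55.8 in clone 48 and 42.8 in clone 66. In clone 48 it did not overlap with the next gene, Hcar1 (32.6), while Hcar1, Adrb3 (32.0), Ffar2 (22.3) and Hcar2 (20.2) each overlapped with their neighbour. In clone 66 Ffar2 (36.9), Hcar1 (35.0), Hcar2 (20.3) and Adrb3 (16.4) followed, again overlapping from each to the next. A gap without overlap then separated these 5 genes from Adora1 and Sucnr1, which lay between 1.92 and 2.88 in median and overlapped with each other. Adrb1 was next, at 0.985 in clone 48 and 0.118 in clone 66, and Ptger3 had a median of 0. At day 2 the order was another one, with Ffar2 first in both clones (13.9 and 17.4, in clone 48 overlapping with Hcar1) and Ffar4 in the fourth place (3.45 and 1.85).

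**Figure D2:**
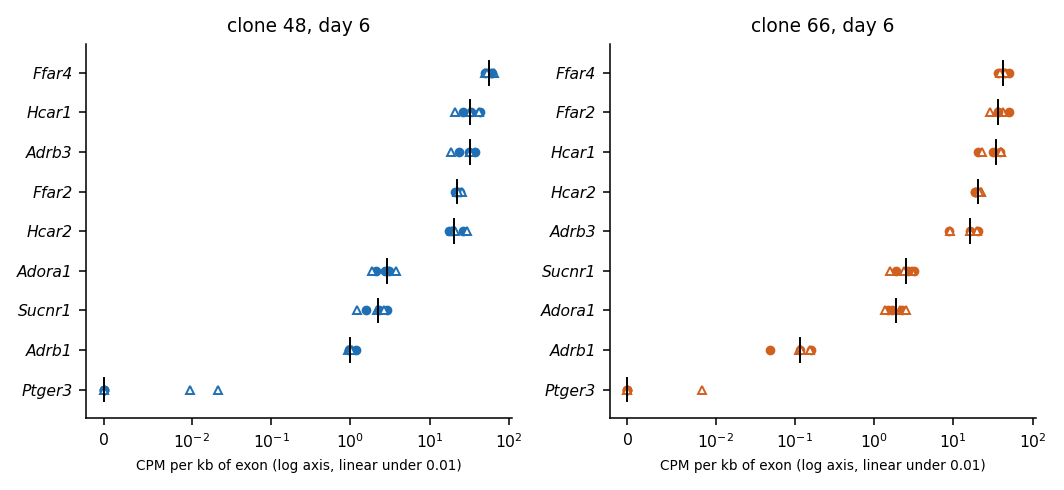
CPM per kb of exon of the 9 receptor genes in the 6 libraries of each clone at day 6, on a log axis that is linear under 0.01, with filled circles for RxraWT, open triangles for RxraSA and a black bar at the median. Ffar4 is at the top in both clones, and Adrb1 lies at a median of 0.985 in clone 48 and 0.118 in clone 66.

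Whether RXRα phosphorylation affects these receptors was asked by comparing RxraSA with RxraWT on each day. None of the 8 genes tested was called on any day, with an adjusted p of 1 for each (edgeR quasi-likelihood test). The background was the same, as 0% of the genes tested were called at day 0, day 2 or day 6, against 139, 162 and 125 genes (0.831%, 0.969% and 0.747%) with an unadjusted p under 0.05. The test thus gave fewer p-values under 0.05 than this limit itself implies, so the absence of calls does not show equal levels. DESeq2 also called 0 genes, with 116, 130 and 101 genes under that limit. For the 7 genes with at least 10 counts in every library of day 6, the log2 fold changes lay between -0.16 (Sucnr1) and 0.17 (Hcar2), with SEs between 0.145 and 0.210. Their estimates with 2 SEs on either side spanned -0.58 to 0.56. For the 5 genes with as many counts at day 2, the estimates lay between -0.19 (Adora1) and 0.19 (Hcar2). At day 0 Hcar1 could be compared, with a log2 fold change of -0.27 (SE 0.23). These errors are from the fit without the pairing. The replicate block has a term for each clone and replicate number that all days share. It therefore does not pair same-numbered libraries within a day, and such a pairing was not fitted. With the replicate block the SEs at day 6 lay between 0.107 (Ffar2) and 0.171 (Adora1), and the adjusted p stayed at 1 for each of the 8 genes on each day.

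Same-numbered libraries of the genotypes were also compared as pairs. Ffar2 was higher in RxraSA in 2 of 6 pairs at day 2 and in 2 of 6 at day 6. Hcar2 was higher in RxraSA in 5 of 6 pairs on both days. The log2 ratios of the Hcar2 pairs lay between -0.08 and 0.32 at day 2 and between -0.0025 and 0.26 at day 6. Its fitted log2 fold change with the replicate block was 0.19 (SE 0.16) at day 2 and 0.17 (SE 0.15) at day 6, with an adjusted p of 1 on both days. Sucnr1 at day 2 had 0 counts in all 6 RxraWT libraries and 0 to 2 counts in the RxraSA libraries, at an unadjusted p of 0.00632 and an adjusted p of 1. Both groups are at or under 3 counts per library, so no fold is given. Sucnr1 at day 6 was lower in RxraSA in 5 of 6 pairs, by a median log2 ratio of -0.22.

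**Figure D3:**
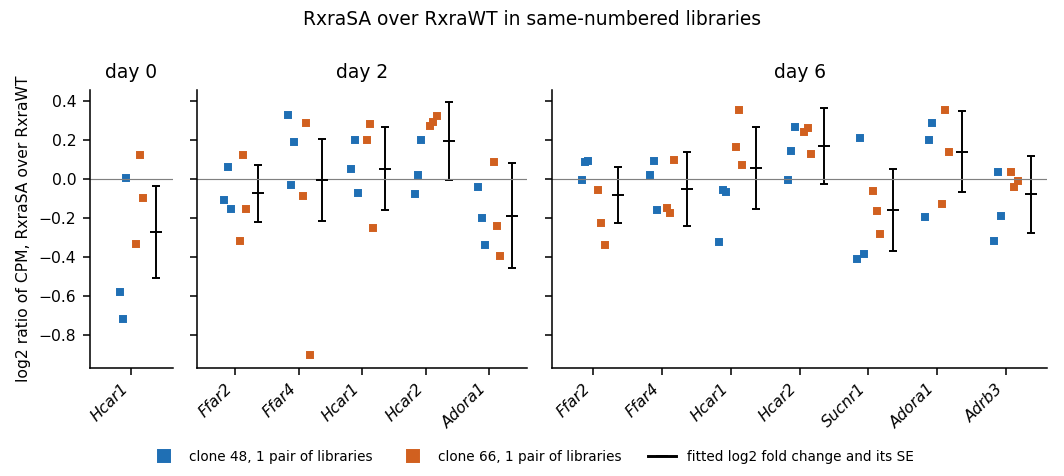
log2 ratio of CPM in RxraSA over RxraWT for same-numbered libraries of clone 48 and clone 66, for receptor genes with at least 10 counts in every library of the day, with the fitted log2 fold change and its SE in black. Points lie on both sides of 0 for every gene shown, with 5 of 6 pairs above 0 for Hcar2 at day 2 and at day 6.

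No difference between the genotypes in the change over time was called either, which again does not show equal changes. The interaction of genotype with day was called for 0 of the 8 genes and 0% of all genes in each of the 3 pairs of days, with 144, 153 and 128 genes (0.861%, 0.915% and 0.765%) at an unadjusted p under 0.05. Among the 8, Sucnr1 alone was under it, in the change from day 2 to day 6 (unadjusted p 0.00522), on the same few counts of day 2. DESeq2 called 0 genes as well, with 125, 133 and 109 under that limit. Likewise the genotype effect was not shown to differ between clones, with 0 of the 8 genes called and 0% of all genes on each day, against 283, 214 and 200 genes (1.69%, 1.28% and 1.2%) at an unadjusted p under 0.05. At day 0 the replicate block called 3 genes and the fit without a filter 5, none of them among the 8, and the block raised the genes at an unadjusted p under 0.05 from 283 to 1434. DESeq2 called 0 on each day, with 253, 168 and 177 under that limit.

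Many more genes were called between the clones than between the genotypes. At day 0, clone 66 differed from clone 48 in 3 of the 8 genes tested and in 23.7% of all genes. At day 2 it differed in 3 of 8 and in 30%, and at day 6 in 4 of 8 and in 26.2%. Each count includes Adrb1, which passed the filter only through clone 48 and had to differ. The counts are not read as a property of the receptors, and what follows describes single genes. Libraries of the clones did not overlap for 13.7%, 18.6% and 15.2% of genes on the 3 days, and for 2, 1 and 2 of the 9 receptor genes.

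Adrb1 was lower in clone 66 on every day. It passed the filter only through clone 48, where it is high, so the difference is given as a description without a test. At day 0 the fitted log2 fold change was -3.94, followed by -3.54 at day 2 and -3.08 at day 6. In pooled counts clone 48 exceeded clone 66 by 14.8 times (counting interval 9.02 to 25.9), 12.3 times (6.97 to 23.7) and 8.52 times (6.27 to 11.8). No library of clone 66 reached the lowest library of clone 48 on the same day. The gap was not shown to change over time, since the clone difference in the change from day 0 to day 6 was 0.86 (SE 0.38) with an adjusted p of 0.290 for Adrb1.

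Adrb3 was also lower in clone 66 at day 6, with 29.5, 55.4 and 68.5 CPM (lowest, median, highest) against 63.1, 108 and 126 CPM in clone 48, a log2 fold change of -0.96 (SE 0.20, adjusted p 6.57e-04). At day 2 Adrb3 had 6 to 14 counts in clone 66 and 10 to 12 in clone 48, and no difference was called (adjusted p 0.365). At day 0 it was called at an adjusted p of 0.0366, but on 1 count in clone 66 against 9 in clone 48, and the call was lost without any of 5 sets of libraries (adjusted p up to 0.154).

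The fatty acid receptors diverged between the clones. Ffar2 was higher in clone 66 at day 6, at 81.7, 103 and 140 CPM against 58.9, 62.2 and 71.8 CPM, with a log2 fold change of 0.74 (SE 0.15, adjusted p 3.48e-04) and no overlap. At day 2 the difference in Ffar2 was 0.34 (SE 0.15, adjusted p 0.0816), and with the replicate number as a block it was called (adjusted p 5.49e-03). Ffar4 was lower in clone 66 at day 2, at 1.69, 2.59 and 3.58 CPM against 3.28, 4.83 and 7.87 CPM (log2 fold change -1.03, SE 0.21, adjusted p 5.34e-04). At day 6 the difference in Ffar4 was -0.40 (SE 0.19, adjusted p 0.118, with the block 0.0121).

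Hcar1 was lower in clone 66 before differentiation, at 2.10, 3.47 and 3.85 CPM against 4.13, 6.29 and 8.66 CPM in clone 48 (log2 fold change -0.93, SE 0.22, adjusted p 1.74e-03), without overlap. At day 2 the difference in Hcar1 was -0.41 (SE 0.19, adjusted p 0.119, with the block 1.67e-03), and at day 6 it was -0.03 (SE 0.19, adjusted p 0.936). The clones thus met at day 6. The clone difference in the change from day 0 to day 6 was 0.90 (SE 0.29, adjusted p 0.0806) for Hcar1, and with the block it was called (adjusted p 5.22e-04), as was that from day 0 to day 2 (adjusted p 0.0370 with the block and 0.353 without it).

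Hcar2 was higher in clone 66 at day 2, at 13.8, 19.5 and 25.0 CPM against 9.61, 10.6 and 14.0 CPM (log2 fold change 0.78, SE 0.17, adjusted p 7.33e-04). At day 6 the medians were 39.1 and 39.0 CPM (log2 fold change -0.12, SE 0.17, adjusted p 0.644). The rise of Hcar2 from day 2 to day 6 was accordingly smaller in clone 66, by 0.90 on the log2 scale (SE 0.24, adjusted p 0.0176), and 6.18% of all genes were called in this comparison. This call was lost without replicate 2 of clone 66 (adjusted p 0.166) or without its replicate 3 (adjusted p 0.113). It was the only one among the 8 genes. For the change from day 0 to day 2 and from day 0 to day 6 none was called, against 6.84% and 3.85% of all genes, and 2 and 3 of the 8 had an unadjusted p under 0.05, as had 18.4% and 13.9% of all genes. From day 2 to day 6 this held for 3 of the 8 and 18.1% of all genes.

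Adora1 was lower in clone 66 at day 6, at 7.96, 11.1 and 14.4 CPM against 10.7, 16.6 and 21.6 CPM. Its log2 fold change was -0.53 (SE 0.20) with an adjusted p of 0.0492, and the call was lost without replicate 2 or 3 of clone 48 or replicate 1 or 2 of clone 66 (adjusted p 0.151 to 0.211), without the filter (0.0752) and with the newer version of the test (0.0614). Sucnr1 was not called at day 6, with 57 to 103 counts in clone 66 and 35 to 76 in clone 48 (log2 fold change 0.21, SE 0.23, adjusted p 0.547).

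**Figure D4:**
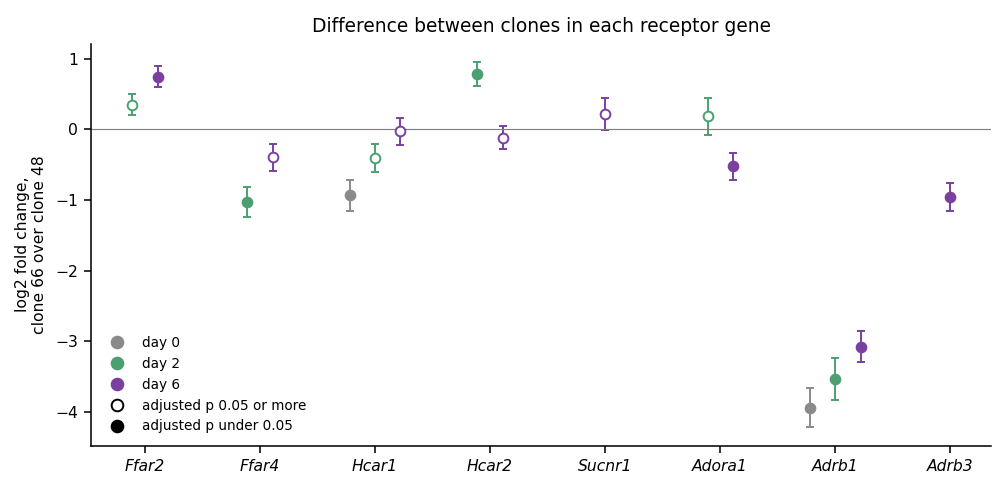
Fitted log2 fold change of clone 66 over clone 48 with its SE on each day, for receptor genes with at least 10 counts in every library of the day and for Adrb1, with filled symbols for an adjusted p under 0.05. Adrb1 lies between -3.94 and -3.08, and its filled symbols are not read as a test, because it passed the filter only through clone 48. Ffar2 is above 0 and Adrb3 below 0 at day 6, and Hcar1 and Hcar2 end near 0.

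Marker genes moved with the clones as well. The summed adipocyte markers were lower in clone 66 at day 2 (3541 to 4470 CPM against 4686 to 6154) and at day 6 (6180 to 7519 CPM against 7730 to 10189), although 1 and 0 of the 6 markers were called singly. The summed pre-adipocyte markers Pdgfra, Dlk1, Ly6a and Cd34 were at 58.3 to 94.3 CPM in clone 66 and 194 to 247 CPM in clone 48 at day 0, and Dlk1 was at 0 in all libraries of clone 48. The neutrophil list, of which S100a9 and Ly6g were at 0 in every library, summed to 2.18 to 4.76 CPM in clone 66 and 0.0691 to 0.208 CPM in clone 48 at day 2. The part of these markers in the differences between the clones was not tested.

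Other receptors for the same ligands that passed the filter are given next, 7 in number with 1 that is not reported here. From day 0 to day 2, 4 of them fell (Adora2a, Adora2b, Ptger1 and Adra1b), where 35.8% of all genes tested rose and 37.5% fell. From day 0 to day 6, 5 fell (Adora2b, Ptger1, Ptger4, Adra1b and Adra1d), where 32.9% of all genes tested rose and 35.4% fell. The adenosine receptor Adora2b, which couples to Gs, fell by 3.02 on the log2 scale from day 0 to day 2 (SE 0.15, adjusted p 7.08e-19), from a median of 5.93 to 0.679 CPM. Adora2a, also coupled to Gs, had 3 to 23 counts at day 0, 0 to 5 at day 2 and 4 to 16 at day 6. At day 6 the median of Adora1 was 12.8 CPM and that of Adora2b 1.40 CPM.

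Among the prostaglandin E2 receptors, Ptger1 fell by 1.96 from day 0 to day 2 (SE 0.15, adjusted p 1.33e-13), and Ptger4 fell by 1.36 from day 2 to day 6 (SE 0.13, adjusted p 9.92e-11). Their medians at day 6 were 1.02 and 1.62 CPM, both above Ptger3. The α1-adrenergic receptor Adra1b fell by 3.42 to day 2 (SE 0.25, adjusted p 2.48e-14), whereas Adra1d changed less, at -0.54 from day 0 to day 6 (SE 0.18, adjusted p 7.74e-03). Ffar1, Ffar3, Gpr84, Adora3, Ptger2, Adra1a, Adra2a, Adra2b and Adra2c did not pass the filter.

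Genes that act downstream of these receptors changed in both directions. Single genes of the lists that follow are named because their change and adjusted p passed set limits, so these p-values add no further support. From day 0 to day 6, 1 of 11 G protein α subunits tested rose and 5 fell, 3 of 7 adenylyl cyclases rose and 3 fell, and 2 of 6 protein kinase A subunits rose and 3 fell, where 32.9% of all genes rose and 35.4% fell. Median log2 fold changes of these lists were -0.16, -0.01 and -0.13, beside -0.03 over all genes. Adcy5 rose late like Adrb3, from 1.64 CPM at day 2 to 21.4 CPM at day 6 (log2 fold change 3.69, SE 0.10, adjusted p 3.33e-25). Adcy7 fell from 56.0 CPM at day 0 to 6.22 CPM at day 2 (log2 fold change -3.17, SE 0.13, adjusted p 4.67e-21) and was at 15.6 CPM at day 6. Prkar2b, the regulatory subunit prominent in fat, rose from 184 to 976 CPM by day 2 (log2 fold change 2.37, SE 0.07, adjusted p 1.56e-24) and was at 557 CPM at day 6. Prkar1b fell from 22.1 to 6.28 CPM by day 2 (log2 fold change -2.02, SE 0.16, adjusted p 1.09e-13) and was at 10.55 CPM at day 6.

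Of 12 receptor kinases, arrestins and accessory proteins tested, 7 rose and 1 fell from day 0 to day 6 (median log2 fold change 0.28). Over all genes tested, 32.9% rose and 35.4% fell. Mrap, which escorts melanocortin receptors to the membrane, rose most, from 0.102 CPM at day 0 to 5.20 CPM at day 2 and 144 CPM at day 6 (log2 fold change 4.71, SE 0.18, adjusted p 7.20e-22 for the second step).

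Genes that make or move the ligands changed too, with 9 of 13 tested higher and 3 lower at day 6 than at day 0 (median log2 fold change 0.82). The shares over all genes tested were 32.9% higher and 35.4% lower. Since all lists were chosen with earlier results of these data known, nothing is read from such counts. Ldha, which makes lactate, rose from 406 CPM at day 2 to 2491 CPM at day 6 (log2 fold change 2.66, SE 0.12, adjusted p 4.25e-20). The lactate exporter Slc16a3 rose from 1.44 to 44.0 CPM in the same step (log2 fold change 4.91, SE 0.11, adjusted p 1.02e-27). Slc16a1, a transporter of lactate and ketone bodies, had risen from 83.9 to 529 CPM by day 2 and was at 270 CPM at day 6. Nt5e, which makes adenosine at the cell surface, rose from 1.39 to 18.9 CPM between day 0 and day 6 (log2 fold change 3.77, SE 0.24, adjusted p 9.50e-16). The prostaglandin synthases Ptgs1 and Ptgs2 fell, Ptgs1 from 219 to 24.2 CPM (log2 fold change -3.19, SE 0.12, adjusted p 2.14e-22) and Ptgs2 from 90.0 to 18.3 CPM (log2 fold change -2.48, SE 0.16, adjusted p 1.64e-15). Maoa, which degrades catecholamines, fell by 2.27 on the log2 scale from day 0 to day 6 (SE 0.12, adjusted p 3.26e-18). Ptges2 rose by 2.15 to day 2 (SE 0.08, adjusted p 9.07e-23), to 135 CPM, and was at 82.2 CPM at day 6. For none of these lists was a gene called between RxraSA and RxraWT on any day.

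The pattern of each receptor gene was compared with that of 12014 genes over the 12 means of clone, genotype and day, on the log2 CPM scale. These correlations describe the same 36 libraries and are dominated by the day. Ffar2 was most like the fatty acid transporter Cd36 and the complement gene C3 (Pearson r 0.999 for each), and Ffar4 was most like Gm26588 (0.999) and Higd1a (0.997). For Hcar1 the closest genes were Trarg1 and Abca1 (both 0.995), for Hcar2 1190005I06Rik (0.997) and Slc25a16 (0.996), and for Sucnr1 Ccdc144b (0.998) and Selenbp1 (0.994). Adora1 was closest to Mrap (0.997) and Slc36a2 (0.996), and Adrb3 to Tshr, the thyrotropin receptor (0.997), and to the overlapping Gm45470 (0.996). Adrb1 had the weakest likeness, with Zfp704 (0.985) and Rnf130 (0.983). Over the 36 single libraries, 5 of these 16 genes were again among the 2 closest.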

How the data were processed

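Total RNA of mouse brown pre-adipocyte lines was sequenced as stranded, paired-end libraries. The authors aligned reads with STAR 2.7.0d to GRCm38 with GENCODE M21 annotation and counted read pairs over exons per gene with featureCounts 1.6.2, and the deposited values used here are these raw counts, made without regard to strand. The authors used edgeR 3.24.3 for their own comparisons.

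Groups were taken from the labels (clone, genotype, day). Genes were kept with filterByExpr for genotype and day (16723 of 36853 with a count), scaled by TMM and fitted with the quasi-likelihood test of edgeR 4.0.16 in R 4.3.3 (limma 3.58.1). Genotype, interaction and day contrasts came from a model of genotype and day with clone as a term, and clone contrasts from a model of all 12 groups. P-values were adjusted over all genes tested by Benjamini-Hochberg, with a threshold of 0.05. Ptger3, below the filter, was compared by an exact permutation test. Ratios of pooled counts have exact 95% intervals, which cover counting error only. The 9 genes and all gene lists were chosen with earlier results of these data known. The 9 genes were named whatever their values. Other receptors were named where they passed the filter, except for 1 that is not reported here, and list genes where their mean reached 10 CPM on any day and the log2 change was at least 2 with an adjusted p under 0.05, with at most 3 per list and direction. For likeness the 2 closest genes by Pearson r were named, out of all genes whose mean log2 CPM reached 1 (prior count 2).

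Same-numbered libraries of RxraWT and RxraSA deviated together in all 18 pairs (correlation 0.176 to 0.930, mean 0.710), so the numbers were taken as pairing libraries. On simulated counts for RxraSA against RxraWT at day 6 (16553 genes), 60 of 100 genes changed 2-fold and 99 of 100 changed 4-fold were recovered, with 4 false calls among 16356 unchanged genes. The simulated libraries were drawn independently, without the deviations that same-numbered libraries share. These rates check the code and do not carry over to the paired libraries. Replicates differed by more than counting noise in all 36 pairs within groups (chi-square per degree of freedom 12.0 to 188). Alternatives were DESeq2 1.42.0, other scaling, no filter, a newer form of the test, a replicate block and leaving out libraries. Motifs were searched with Python 3.11.15.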

Additional observations from a re-analysis of the deposited data

Results flagged for a closer look

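Hcar2 differed between the clones in its change from day 2 to day 6, with a log2 difference of -0.90 for clone 66 against clone 48 (SE 0.24, adjusted p 0.0176, edgeR quasi-likelihood test). Hcar1 at day 6 moved in opposite directions with genotype in the clones. Its level in RxraSA over RxraWT was lower in all 3 pairs of clone 48 (median log2 ratio -0.07) and higher in all 3 pairs of clone 66 (0.16), a gap of 0.23. The fitted clone difference in the genotype effect was 0.32 (SE 0.38) for Hcar1, and 0.33 (SE 0.21) with the replicate block, and was not called by either. In 30 sets of 6 libraries examined, 0 single libraries stood apart from the others of their set. Each set holds both genotypes, so same-numbered libraries that move together are not flagged by this rule. Adrb3 in clone 66 at day 6 was such a case, at 29.5 and 30.3 CPM in replicate 1 and at 55.2 CPM or more in the other libraries.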

How the results depend on the processing

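The main results were kept in 221 of 229 recomputations. These were counts of receptor genes called or without overlap between days, kept if within 1.5 times of their value, and the sign of the Ptger3 genotype difference. Counts of 0 that stayed at 0, as for the genotype contrasts, are among those kept. The recomputed values also include counts for day 2 to day 6, a step described above without a test. Counts between the clones include Adrb1, which had to differ. The share kept is therefore not read as support for the results. With the replicate block, 5 genes were called between the clones at day 2 (3 without it), 1 in the clone difference from day 0 to day 2 (0 without it) and 1 in that from day 0 to day 6 (0 without it). DESeq2 and the fit with no filter on low counts also called 1 in the last, and leaving out replicates gave 0 to 1 there. For the clone difference from day 2 to day 6 leaving out replicates gave 0 to 1. Apart from the values given beside the results, the block changed no other call of the 9 genes. For contrasts between clones the block removes spread between replicates against which clones are compared. Among single genes, 1039 values kept their side of the threshold and either kept direction or, if uncalled, moved by at most 1 SE. Such small moves could cross 0, as for Ffar4 in RxraSA against RxraWT at day 2 (-0.076 to 0.126 on the log2 scale). A further 10 values gained and 13 lost the call. By more than 1 SE, 4 uncalled log2 differences between clones at day 6 changed sign. Over the replicates left out in turn, Hcar1 ranged from -0.22 to 0.20 (0.20 without replicate 3 of clone 48, 0.19 without replicate 1 of clone 66), Hcar2 from -0.21 to 0.074 (without replicate 2 of clone 48) and Sucnr1 from -0.019 (without replicate 3 of clone 48) to 0.41. The cause was not tested. Scaling by library size alone moved the median log2 change of all genes to -0.27 from day 0 to day 2 and to -0.22 from day 0 to day 6, against -0.02 and -0.03 with TMM. Depth limits Ptger3 on every day, and Sucnr1 before day 6.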

Other observations

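The replicate number moved with several of the 9 genes in all 4 cell lines at day 6. Adrb3 was lowest in replicate 1 in 4 of 4 lines, at 29.5 to 78.5 CPM against 66.7 to 110 CPM in replicate 2 and 55.2 to 126 CPM in replicate 3. Hcar1 was lowest in the same replicate, at 67.5 to 86.8 CPM against 104 to 133 and 126 to 143 CPM. Adora1 was also lowest there in 4 of 4 lines, at 7.96 to 12.3 CPM. Sucnr1 was instead lowest in replicate 3 in 4 of 4 lines, at 2.00 to 3.14 CPM, and Ffar2 and Ffar4 were highest in replicate 2 in 4 of 4. The summed adipocyte markers at day 6 lay at 7319 to 9785 CPM in replicate 1, 7333 to 10189 CPM in replicate 2 and 6180 to 7950 CPM in replicate 3. What libraries of one number share is not stated in the labels, and the part of the markers in these values was not tested.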
